A study of Mus musculus with 6 samples.

Results

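The Zfp genes are mouse genes named for zinc finger proteins. They were chosen from the deposited table of normalized intensities by their annotation, as every Affymetrix probe set with 1 gene symbol starting with Zfp. This rule uses names only, though the table it was applied to had been selected on measured values. It found 21 probe sets for 19 genes, of 1382 probe sets and 987 named genes in all. Zfp386 and Zfp991 had 2 probe sets each, and 2 further probe sets that list a Zfp symbol beside other genes were left out. Each array measured uterine RNA of mated females, collected 3.5 days post coitum, in 3 samples with floxed, intact Stat3 alleles (Stat3 f/f, replicates 1, 2 and 4) and 3 with deleted alleles (Stat3 d/d, replicates 1, 2 and 3). All 6 samples share the day and the tissue. The sources used here do not give what drove the deletion, the age and strain of the mice, or whether an array holds 1 animal. A p-value here therefore reflects the variation among these arrays, part or all of which may be technical.

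The table had already been selected on this comparison. In each of its probe sets the group means differ at least 1.5-fold, the groups do not overlap (100%), and limma's adjusted p is under 0.05 (100%). That a Zfp probe set passed, or that its groups do not overlap, is therefore no result about it, and what is described here is direction, size and position. Zfp genes outside the table were not analysed here. Stat3 itself read 262, 356 and 243 on the Stat3 f/f arrays against 121, 101 and 131 on the Stat3 d/d arrays by its brighter probe set, 41.0% of the Stat3 f/f mean. Of the uterine markers listed, the table holds 2 of 12 for epithelium, the claudins Cldn3 and Cldn4, whose summed intensity was 516 to 815 without deletion and 1028 to 1209 with it. It also holds the stromal proteoglycan gene Dcn (-1.06) and the progesterone receptor gene Pgr (-0.84), and no listed marker of smooth muscle or vessels.

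Most genes with such names encode proteins that bind DNA through arrays of C2H2 zinc fingers, and in many of them the fingers follow a KRAB domain, which recruits the corepressor TRIM28 and, with it, enzymes that lay down repressive histone methylation. Many KRAB zinc finger proteins bind endogenous retroviruses and other transposable elements and silence them. Their genes multiplied by tandem duplication and lie in clusters on several mouse chromosomes, so that neighbours are often close relatives with similar sequence. Zfp644 and Zfp704 are outside this KRAB group.

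By the probe set of each that was brighter over all 6 arrays, 14 of the 19 Zfp genes rose in Stat3 d/d and 5 fell. Zfp991, whose 2 probe sets moved in opposite directions, counts as a rise by this choice. In Stat3 f/f alone its other probe set, which fell, was the brighter (mean 21.4 against 13.3). Of the 21 probe sets 15 were higher (71.4%) and 6 lower. Past the same threshold, 67.4% of all probe sets and 66.9% of all genes were higher, and 32.6% and 33.1% lower, so the lean of the Zfp genes was close to that of all selected genes. The median log2 change, Stat3 d/d minus Stat3 f/f on log2(intensity + 1), was 0.76 over the Zfp genes and 0.70 over all genes. Rises of Zfp genes had a median of 1.05, against 0.92 over all genes, and falls a median of -0.71, against -0.78. At least 2-fold on that scale, 8 of 19 Zfp genes rose (counting Zfp991) and 0 fell, against 271 and 92 of 987 genes. These counts turn with the scaling: after median centring 3 Zfp genes rose and 5 fell by that much (118 and 322 of all genes), and after quantile normalization 3 and 5 (122 and 306). Beside these counts, the leukocyte markers of the table moved too: all 20 of the 31 listed that it holds were higher (median 1.32), with a summed intensity of 839 to 1305 in Stat3 f/f and 2224 to 4072 in Stat3 d/d and none at 0. They are Ctss, Cd52, Ptprc, Laptm5, Mpeg1, Fcer1g, Lcp1, Coro1a, Cd53, Adgre1, Gzmb, Klrd1, Gzma, Nkg7, Il2rb, Ncr1, Eomes, Itgax, Cd209a and Cd3g. Fewer or more cells of a type and less or more RNA per cell cannot be told apart in whole uteri, and the part of leukocytes in the Zfp changes was not tested.

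**Figure D1:**
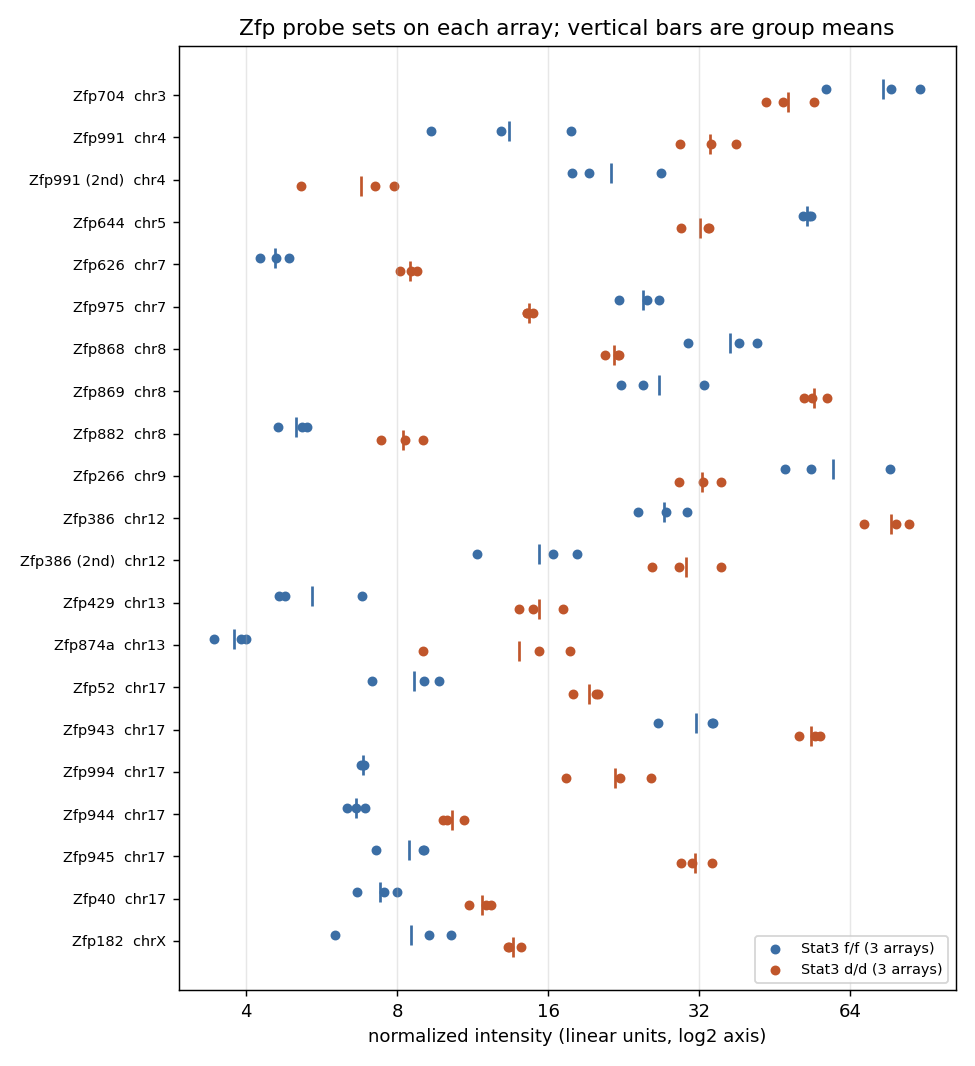
Normalized intensity (log2 axis) of each of the 21 Zfp probe sets on each array, Stat3 f/f in blue and Stat3 d/d in orange, 3 arrays each, with the group mean as a vertical bar; labels give the chromosome, and (2nd) marks the dimmer probe set of a gene. Zfp values run from 3.45 to 88.3, the groups do not overlap in any row, as in the whole selected table, and orange lies to the right in 15 rows.

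Zfp signals were low. They ran from 3.45 to 88.3 in a table that spans 2.47 to 4352. Of the 21 probe sets 7 have a mean under 13.4, the limit of the lowest 25% of the table. These 7, of Zfp626, Zfp882, Zfp429, Zfp874a, Zfp944, Zfp40 and Zfp182, were all higher in Stat3 d/d. Without the lowest 25%, 7 Zfp genes were higher (58.3%) and 5 lower. The matching shares over all dim probe sets and over all genes left were not taken. Whether dim Zfp probe sets lean upward more than other dim ones is therefore not read from these counts. No detection call comes with the table, so whether the dimmest are above background is unknown, and their changes on the log2(intensity + 1) scale are understated. Arrays of a group varied by a median of 13.9% (coefficient of variation) over Zfp probe sets without deletion and 7.26% with it, beside 16.5% and 12.5% over all probe sets. Replicate 2 was the lowest Stat3 f/f array for 11 of the 21 Zfp probe sets (52.4%) and for 39.9% of all probe sets.

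By position, 10 of the 19 genes lie near another Zfp gene of the table, with at most 40 annotated genes between neighbours in the RefSeq gene order of GRCm38.p6. They form a cluster of 6 on chromosome 17, a pair on chromosome 13 and a pair on chromosome 8. All 6 genes of the chromosome 17 cluster and both of chromosome 13 were higher in Stat3 d/d, while the chromosome 8 pair moved in opposite directions. Of the 10 clustered genes 9 were higher, and of the 9 others 5. Of all named genes of the table, 66.9% were higher, with 72.7% on chromosome 17, 68.2% on chromosome 13 and 59.4% on chromosome 8. These counts have no test. Both chromosome 13 genes (Zfp429 and Zfp874a) and, on chromosome 17, Zfp944 and Zfp40 are read by probe sets in the dimmest 25% of the table. Probe sequences were not examined, so how far a probe set reads 1 gene among similar neighbours is uncertain.

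**Figure D2:**
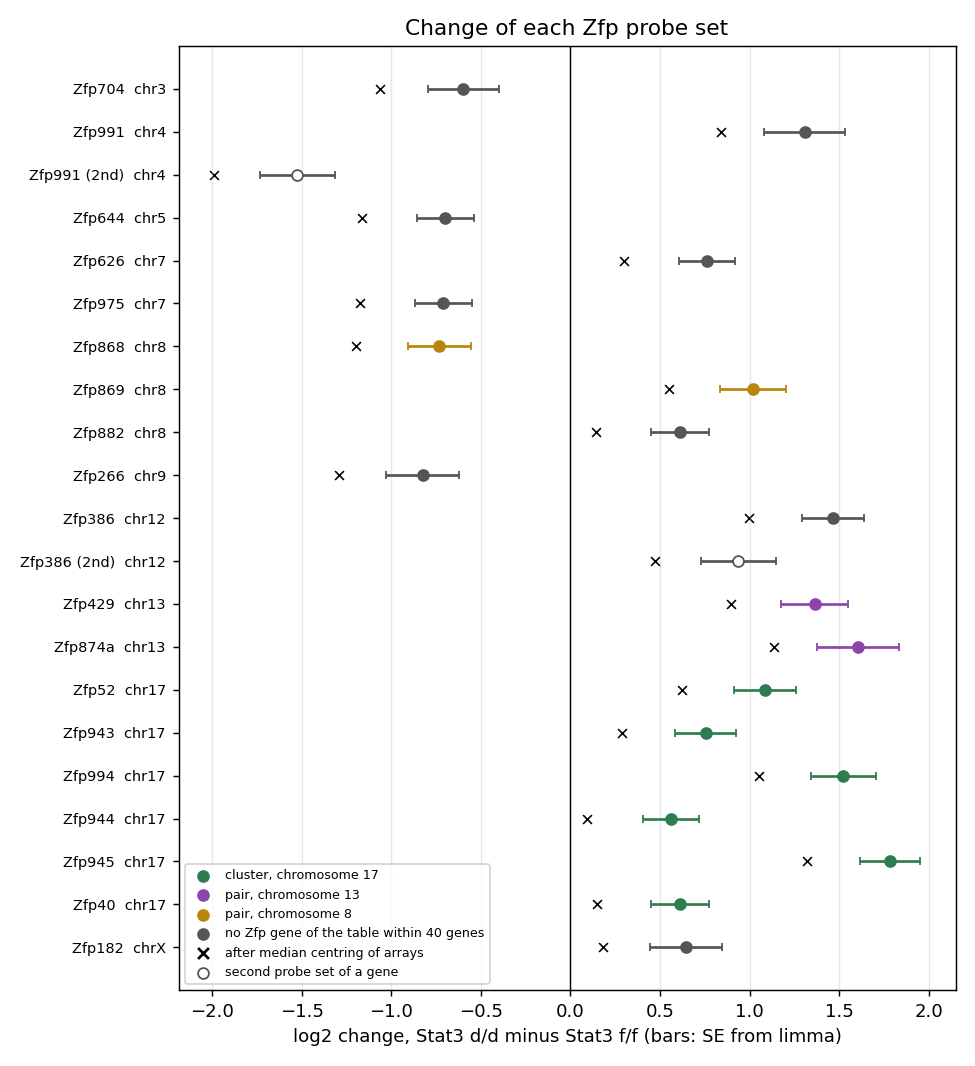
Log2 change of each Zfp probe set, Stat3 d/d minus Stat3 f/f, with its SE from limma (bars), coloured by chromosomal group; crosses give the same change after each array was centred on its median in the table, and white circles mark second probe sets. All 6 chromosome 17 genes lie right of 0, from 0.56 to 1.79, and the crosses lie further left in every row, without crossing 0 in any row.

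The chromosome 17 cluster runs, in gene order, through Zfp52, Zfp943, Zfp994, Zfp944, Zfp945 and Zfp40. Its span holds 53 annotated genes, 23 of them protein-coding and 16 with a Zfp symbol; 6 of these 16 are in the table, and so is no other named gene of the span. With 40 annotated genes added on either side, the table still holds those 6 alone. Averaged over the 6 probe sets, log2(intensity + 1) was 3.40, 3.35 and 3.48 in Stat3 f/f replicates 1, 2 and 4 and 4.52, 4.40 and 4.47 in Stat3 d/d replicates 1, 2 and 3, the order used for all values that follow. That every Stat3 d/d array stood above every Stat3 f/f array was fixed by the selection of the table, once all 6 probe sets rose.

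Zfp945 had the largest change of any Zfp gene. Its probe set read 7.25, 9.01 and 9.04 in Stat3 f/f, rising to 31.0, 33.9 and 29.4 in Stat3 d/d. Every deleted sample was above every control, as for every rise in the selected table. The means were 8.43 ± 1.02 and 31.4 ± 2.28 (SD, n = 3 arrays), a ratio of 3.73 and a log2 change of 1.79 (SE 0.17). Its suffix, a, marks a probe set that reads several transcripts of its gene. Zfp994 read 6.77, 6.88 and 6.83, and then 25.7, 17.3 and 22.2. The control arrays were nearly equal and the deleted ones all higher but more spread, for a ratio of 3.19 and a change of 1.52 (SE 0.18). Zfp52, which RefSeq also lists as KRAB11, read 9.70, 7.14 and 9.04 against 19.9, 17.9 and 20.2, a ratio of 2.24 (1.09, SE 0.17).

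The other 3 members rose less. Zfp943 read 34.0, 26.5 and 34.1 without deletion and 54.5, 50.6 and 55.7 in Stat3 d/d, a ratio of 1.70 (0.76, SE 0.17). Zfp944 read 6.37, 6.63 and 6.91 against 10.1, 10.9 and 9.89, a ratio of 1.55 (0.56, SE 0.16). Zfp40 read 6.67, 7.52 and 7.99 against 12.3, 11.2 and 12.01, a ratio of 1.60 (0.61, SE 0.16). The 6 genes therefore shared a direction but not a size. Between Zfp945 and Zfp944, separated by 11 annotated genes, the change differed by 1.22, and the within-array difference between them, set to a mean of 0 in Stat3 f/f, lay from -0.14 to 0.09 in Stat3 f/f and from 1.18 to 1.25 in Stat3 d/d. Large and small changes alternate along the order of these 6, with Zfp52, Zfp994 and Zfp945 above 1 and Zfp943, Zfp944 and Zfp40 below. The Zfp genes that lie between them outside the table have no value here, so no pattern along the whole cluster is read from this. After each array was centred on its median, the 6 changes ran from 0.10 to 1.32, and 3 of them (Zfp52, Zfp994 and Zfp945) passed an adjusted p of 0.05 in limma; quantile normalization also gave 0.10 to 1.32, with the same 3.

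Promoter sequence (RefSeq, GRCm38.p6: 250 bases before to 50 after the annotated start) was in hand for 15 of the 19 genes, among them 5 of this cluster. These 15 genes have 17 windows, as Zfp644 and Zfp868 each have a second annotated start. Zfp943 and Zfp944 are shown because they share the longest identical run of any pair of Zfp promoters compared, 169 bases, written in capitals. The windows are chr17:21962309-21962608 on the plus strand for Zfp943 and chr17:22361351-22361650 on the minus strand for Zfp944.
Zfp943: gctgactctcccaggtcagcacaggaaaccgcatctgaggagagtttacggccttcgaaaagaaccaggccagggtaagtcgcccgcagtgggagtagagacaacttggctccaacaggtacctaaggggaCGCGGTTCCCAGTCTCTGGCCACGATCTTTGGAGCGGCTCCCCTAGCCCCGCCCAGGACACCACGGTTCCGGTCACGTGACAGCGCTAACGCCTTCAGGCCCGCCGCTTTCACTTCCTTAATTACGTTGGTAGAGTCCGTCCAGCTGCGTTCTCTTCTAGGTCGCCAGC
Zfp944: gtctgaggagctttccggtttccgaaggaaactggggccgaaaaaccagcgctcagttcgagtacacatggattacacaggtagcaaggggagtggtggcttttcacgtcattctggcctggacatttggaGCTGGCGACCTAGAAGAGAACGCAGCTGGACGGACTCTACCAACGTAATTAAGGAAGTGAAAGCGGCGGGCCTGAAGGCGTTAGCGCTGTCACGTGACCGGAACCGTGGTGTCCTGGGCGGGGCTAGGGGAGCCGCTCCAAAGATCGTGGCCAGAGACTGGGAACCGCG
The run begins 119 bases before the start in each window, and reads in the opposite direction in one relative to the other. It continues to the last base of both windows, so the window edges set its length and its beginning. Bases beyond the windows were not compared. Among 27025 genes with a promoter window, 3 hold this run: Zfp943, Zfp944 and Zfp942, the annotated gene just before Zfp943, which was not analysed here. Zfp943 and Zfp944 were among the smaller changes of the cluster, at 0.76 and 0.56, and both lost their calls after either scaling of the arrays.

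Zfp994 and Zfp945, the largest changes of the cluster, are shown with Zfp868 and Zfp869 of chromosome 8 because the 4 windows share a short run, GAGTGACAGGA, in capitals on whichever strand holds it. The windows are chr17:22225565-22225864, chr17:22867085-22867384, chr8:69625499-69625798 and chr8:69716853-69717152, all on the minus strand.
Zfp994: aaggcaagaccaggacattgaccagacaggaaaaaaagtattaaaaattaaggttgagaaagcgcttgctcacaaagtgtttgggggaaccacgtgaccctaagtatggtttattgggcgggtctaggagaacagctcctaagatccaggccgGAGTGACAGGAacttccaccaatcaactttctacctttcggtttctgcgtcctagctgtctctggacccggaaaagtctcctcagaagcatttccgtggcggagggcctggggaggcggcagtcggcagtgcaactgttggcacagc
Zfp945: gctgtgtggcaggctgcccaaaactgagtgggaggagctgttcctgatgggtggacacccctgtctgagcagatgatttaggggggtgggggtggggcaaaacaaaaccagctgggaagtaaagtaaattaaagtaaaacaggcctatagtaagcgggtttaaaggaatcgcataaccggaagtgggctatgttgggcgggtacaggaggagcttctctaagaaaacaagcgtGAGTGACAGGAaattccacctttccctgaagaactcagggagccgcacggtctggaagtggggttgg
Zfp868: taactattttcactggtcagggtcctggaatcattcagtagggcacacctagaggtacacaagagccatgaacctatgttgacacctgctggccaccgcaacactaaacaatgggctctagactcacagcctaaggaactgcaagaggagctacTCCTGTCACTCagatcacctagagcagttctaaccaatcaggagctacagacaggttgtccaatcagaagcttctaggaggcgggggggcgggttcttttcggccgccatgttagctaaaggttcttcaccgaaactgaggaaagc
Zfp869: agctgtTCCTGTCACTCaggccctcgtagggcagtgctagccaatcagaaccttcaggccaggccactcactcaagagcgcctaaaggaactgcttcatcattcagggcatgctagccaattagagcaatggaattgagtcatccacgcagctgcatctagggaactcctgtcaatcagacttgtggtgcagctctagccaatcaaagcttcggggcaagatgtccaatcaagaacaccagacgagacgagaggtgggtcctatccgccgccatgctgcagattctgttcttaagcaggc
The run begins 97 bases before the start in Zfp994, 17 in Zfp945, 96 in Zfp868 and 244 in Zfp869. It was picked because these promoters share it, and on either strand 30 of 27025 genes hold it (0.111%), or 9 of 336 Zfp genes with a promoter (2.68%), of which the table has these 4. Zfp994, Zfp945 and Zfp869 rose and Zfp868 fell, so its 4 holders in the table did not share a direction.

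**Figure D3:**
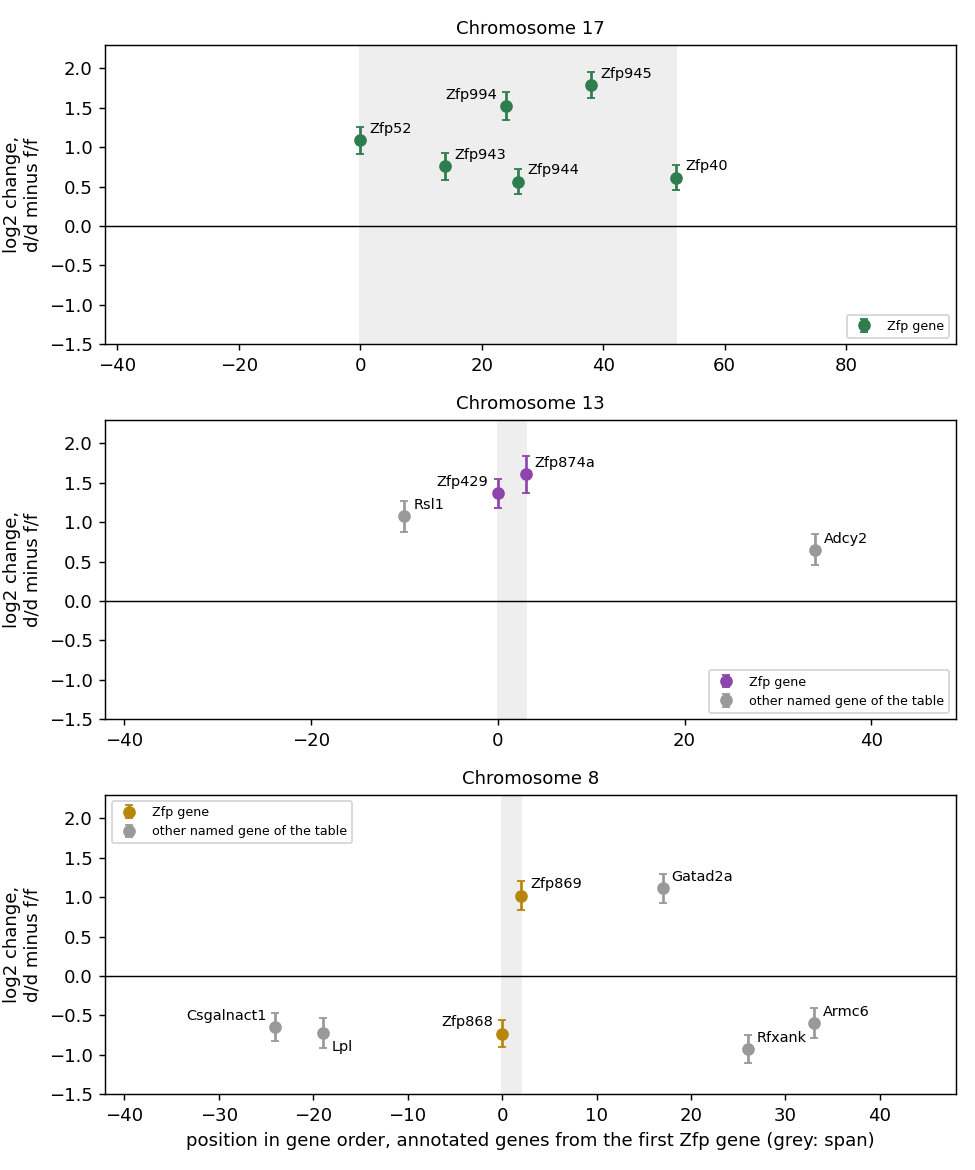
Log2 change, Stat3 d/d minus Stat3 f/f, with SE, of every named gene of the table that lies in each Zfp group or within 40 annotated genes of it, in gene order from the first Zfp gene of the group; the grey band is the span of the group. On chromosome 17 all 6 named genes are Zfp genes and higher, on chromosome 13 the 4 genes are higher, and on chromosome 8 Zfp868 is lower and Zfp869 higher among 5 other genes.

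On chromosome 13 Zfp429 and Zfp874a lie with 2 annotated genes between them. RefSeq lists Zfp429 also as Rsl2 and Zfp874a as Rslcan15, names from the regulator of sex-limitation locus, a cluster of KRAB zinc finger genes known for restraining sex-biased genes in the liver. Zfp429 read 6.80, 4.78 and 4.65 without deletion and 14.0, 14.96 and 17.1 in Stat3 d/d, a ratio of 2.84 and a change of 1.36 (SE 0.19). Zfp874a read 3.99, 3.91 and 3.45 against 9.03, 17.7 and 15.3, a ratio of 3.71 and a change of 1.60 (SE 0.23). For Zfp874a the control arrays lay near the lowest value of the table (2.47), and Stat3 d/d replicate 1 stood well below the other 2 deleted samples. The 2 changes differ by 0.24, about the size of their errors. Both kept their call after either scaling, at 0.90 and 1.14 after median centring.

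Rsl1, another gene of that locus whose name does not begin with Zfp, is also in the table and lies 10 places before Zfp429. It read 8.11, 5.62 and 5.07 without deletion and 13.5, 15.2 and 13.5 in Stat3 d/d, a change of 1.07 (SE 0.19). Its probe set has the suffix x, which marks probes shared with other transcripts. Within 40 annotated genes of the pair, RefSeq lists 25 genes with a Zfp symbol, of which the table holds these 2, and all 4 named table genes of that window were higher.

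The promoters of Zfp429 (chr13:67399718-67400017) and Zfp874a (chr13:67451575-67451874), both on the minus strand, are shown with ATGTAGTC in capitals. Of the 6 runs of 8 letters that both hold, it is the one that the most Zfp or Rsl1 promoters around them share (16 of 23). The other 5, from TCGCACAG to ACAGACTT, stood in 7 each. They overlap within the longest run that both promoters hold, of 12 bases, which is left in lower case.
Zfp429: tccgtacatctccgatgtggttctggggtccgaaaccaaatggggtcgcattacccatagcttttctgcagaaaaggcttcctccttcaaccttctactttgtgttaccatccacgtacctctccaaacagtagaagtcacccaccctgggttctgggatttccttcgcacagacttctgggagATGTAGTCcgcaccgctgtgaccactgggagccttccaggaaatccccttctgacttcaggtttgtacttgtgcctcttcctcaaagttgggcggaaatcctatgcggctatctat
Zfp874a: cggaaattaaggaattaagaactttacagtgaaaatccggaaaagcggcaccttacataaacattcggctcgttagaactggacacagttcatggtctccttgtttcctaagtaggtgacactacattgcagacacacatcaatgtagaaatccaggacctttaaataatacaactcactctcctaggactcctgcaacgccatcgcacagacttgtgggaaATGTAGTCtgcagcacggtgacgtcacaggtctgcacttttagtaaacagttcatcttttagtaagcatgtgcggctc
ATGTAGTC begins 66 bases before the start in Zfp429 and 28 in Zfp874a. Searched on both strands, it stood in 1.02% of 27025 genes, in 8.63% of 336 Zfp genes and in 16 of the 23 Zfp genes or Rsl1 with a promoter in this stretch of chromosome 13, Rsl1 among them. Of the other Zfp genes of the table with a promoter, Zfp626 on chromosome 7 holds it too. ATGTAGTC was picked by its count in this stretch, so that count is no separate result. Its holders there include genes of the table and genes not analysed here.

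The chromosome 8 pair, Zfp868 and Zfp869, has 1 annotated gene between its members, and they moved apart. Zfp868 read 38.4, 30.4 and 41.8 without deletion and 22.1, 22.1 and 20.8 in Stat3 d/d, 58.7% of the control mean (-0.73, SE 0.17). Zfp869 read 32.8, 22.3 and 24.8 against 57.5, 53.8 and 51.7, a ratio of 2.04 (1.02, SE 0.18). On each array the log2 difference of Zfp869 minus Zfp868, set to a mean of 0 in Stat3 f/f, is not altered by centring whole arrays. It was 0.24, 0.03 and -0.27 in Stat3 f/f and 1.81, 1.71 and 1.74 in Stat3 d/d, a shift of 1.75. Around the pair, 5 other named genes of the table lie within 40 annotated genes, and of all 7 there 2 were higher and 5 lower. Zfp882 lies further along this chromosome, 132 annotated genes beyond Zfp869. It read 4.63, 5.30 and 5.17 against 8.99, 7.43 and 8.28, a ratio of 1.64 (0.61, SE 0.16).

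Of the Zfp genes without such neighbours, Zfp386, on chromosome 12 and listed by RefSeq also as Kzf1, rose most. Its brighter probe set read 30.2, 24.2 and 27.5 without deletion and 68.3, 84.0 and 78.9 in Stat3 d/d, a ratio of 2.83 (1.47, SE 0.17). The other probe set, with the suffix a, read 16.3, 11.5 and 18.3 against 29.2, 25.8 and 35.4, a ratio of 1.96 (0.94, SE 0.21). Both thus rose, though the dimmer lost its call after median centring (0.47, limma's adjusted p = 0.0598). The brighter minus the dimmer on each array, relative to the Stat3 f/f mean, was 0.04, 0.20 and -0.24 without deletion and 0.39, 0.86 and 0.33 with it. The highest control value is close to the lower 2 of the deleted samples.

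Zfp991, on chromosome 4, had probe sets in opposite directions. The brighter read 17.8, 9.36 and 12.9 without deletion and 33.7, 29.3 and 37.9 in Stat3 d/d, a ratio of 2.52 (1.31, SE 0.23). The dimmer read 26.9, 17.9 and 19.3 against 5.15, 7.90 and 7.24, or 31.7% of the control mean (-1.52, SE 0.21). The second is the deepest fall of any Zfp probe set, and averaged over both the change was -0.11. On each array the brighter minus the dimmer, relative to the Stat3 f/f mean, was 0.09, -0.20 and 0.11 without deletion and 3.16, 2.43 and 2.90 with it. Which transcripts each reads was not examined, so no direction is given for the gene as a whole, although it counts among the 14 higher by its brighter probe set.

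**Figure D4:**
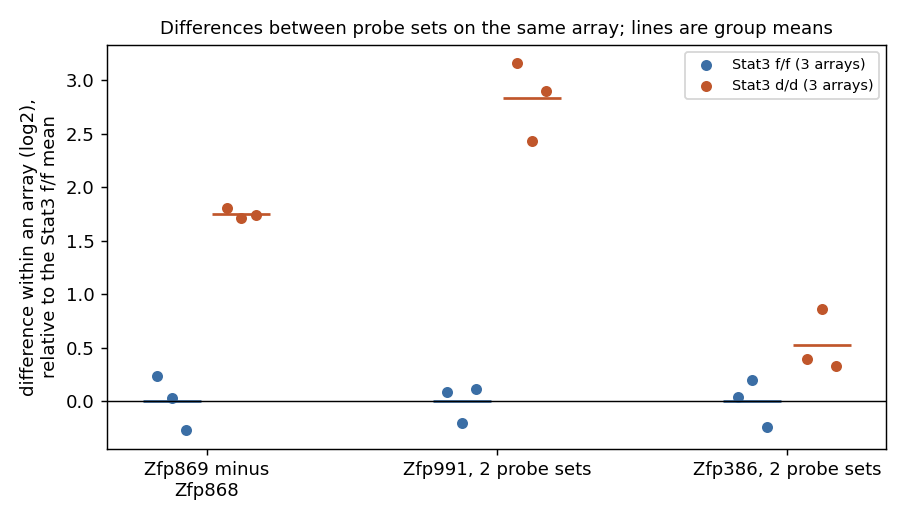
Difference between 2 probe sets on the same array (log2), set to a mean of 0 in Stat3 f/f, for Zfp869 minus Zfp868 and for the brighter minus the dimmer probe set of Zfp991 and of Zfp386; points are arrays, 3 per group, and lines are group means. Stat3 d/d lies 1.75, 2.83 and 0.53 above Stat3 f/f, a shift that centring whole arrays does not alter.

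The other rises outside clusters were smaller and dim. Zfp626, on chromosome 7, read 4.27, 4.88 and 4.58 without deletion and 8.10, 8.53 and 8.78 in Stat3 d/d, a ratio of 1.85 (0.76, SE 0.16). Zfp182, on the X chromosome, read 10.3, 6.01 and 9.28 against 13.4, 14.2 and 13.3, a ratio of 1.60 (0.65, SE 0.20). Its lowest control array is replicate 2, and without it the change was 0.44. Zfp626, Zfp882 and Zfp182 lost their calls after either scaling of the arrays.

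The 5 falls besides the second Zfp991 probe set were alike in size, between -0.60 and -0.82. They ran from -1.06 to -1.29 after median centring and from -1.05 to -1.26 after quantile normalization. The selection kept no probe set under 1.5-fold, so smaller falls are cut off and the likeness in size is partly set by it. Only Zfp868 among the 5 has a Zfp neighbour in the table. Zfp266, on chromosome 9, read 53.5, 47.4 and 76.8 without deletion and 29.1, 35.4 and 32.6 in Stat3 d/d, 54.7% of the control mean (-0.82, SE 0.20). Stat3 f/f replicate 4 was its highest array, and without it the change was -0.63. Zfp644, on chromosome 5, whose human counterpart acts with the histone methyltransferases G9a and GLP, read 53.0, 51.4 and 53.4 against 33.3, 29.5 and 33.6, or 61.1% (-0.70, SE 0.16). The arrays of each group lay close together, and a gap between the groups is common to the whole selected table. Zfp975, on chromosome 7 and read by a probe set with the suffix x, went from 22.2, 26.6 and 25.2 to 14.5, 14.95 and 14.5, or 59.5% (-0.71, SE 0.16). On chromosome 3, Zfp704 went from 57.3, 77.3 and 88.3 to 47.0, 43.6 and 54.1, or 64.9% (-0.60, SE 0.20). The lowest control value of Zfp704 (57.3) is close to its highest deleted value (54.1), and leaving out Stat3 d/d replicate 2 ended its call (-0.53, limma's adjusted p = 0.0503).

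When the adjustment was made over 45000 assumed tests, about the size of such an array, 9 of the 19 genes passed in limma (47.4%, against 35.9% of all genes), all higher (27.1% of all genes) and 0 lower (8.81%). By probe set 10 of 21 passed (47.6%, against 37.5%): 9 were higher (42.9%, against 28%) and 1, the second of Zfp991, lower (against 9.48%). The 9 are Zfp945, Zfp994 and Zfp52 of chromosome 17, Zfp429 and Zfp874a of chromosome 13, Zfp869, Zfp386, Zfp991 and Zfp626. The smallest adjusted p under that assumption was 0.00044, for Zfp945, and Zfp626 passed barely (0.0496). None of the 5 falls passed, with adjusted p from 0.0779 to 0.415. This count assumes that every probe set outside the table has a larger p, and was set after the data were seen.

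Scaling bears on the size of rises and falls alike, making rises smaller and falls deeper. With each array centred on its median in the table, all probe sets had a median change of 0.24, and with quantile normalization 0.25, in place of 0.70; a table selected in this way does not show which scaling holds. After median centring 14 of the 21 Zfp probe sets were called in limma (63.2% of all), 8 higher (30.5%) and 6 lower (32.6%), and after quantile normalization 15 (64.2%), 9 higher (31.5%) and 6 lower (32.6%). No Zfp probe set changed direction under either. Relative to all genes, the Zfp median stood 0.05 higher in the values as deposited and after median centring, and 0.03 higher after quantile normalization. Without Stat3 f/f replicate 2 it stood below instead (-0.02), and without the dimmest 25% of probe sets 0.15 above, so no difference from all genes is read from it.

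Among the promoters, TTCNNNGAA, the core of the site read by STAT proteins, was searched on both strands, where its fixed letters read alike. It stood in 3 of 15 Zfp genes of the table (20%), in 9.55% of all 27025 genes and in 17.3% of 336 Zfp genes. The matches were TTCCAGGAA in Zfp429, TTCCCTGAA in Zfp945 and TTCACCGAA in Zfp868, the first 2 of which rose while Zfp868 fell. In the stretch of chromosome 13 TTCNNNGAA stood in 16 of 23 genes, in Zfp429 but not in Zfp874a. Around the chromosome 17 cluster it stood in 4 of 21 Zfp genes with a promoter, and around the chromosome 8 pair in 1 of 5. CCAAT, searched on both strands, stood in 9 of the 15 (60%), in 41.1% of all genes and in 52.1% of Zfp genes. TGACGTCA, the cyclic AMP response element, stood in 3 of 15 (Zfp868, Zfp266 and Zfp874a), against 2.03% and 3.87%. Its match in Zfp868 lies in the second window of that gene, which is not shown. Of its holders Zfp874a rose while Zfp868 and Zfp266 fell. All these motif counts are matches of letters in windows of 300 bases and no measure of binding.

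Related genes give little to set beside these. Of 36 cofactors of KRAB zinc finger proteins listed, among them Trim28, Setdb1 and the heterochromatin protein genes Cbx1, Cbx3 and Cbx5, 0 are in the table, and their levels were not analysed here. Of zinc finger genes with other names, searched by a list of name beginnings that does not take in Rsl1, the table holds 5, of which 4 were higher and 1 lower (median 0.79). Ikzf1 and Ikzf2, the lymphoid factors Ikaros and Helios, were higher by 0.95 (SE 0.22) and 0.79 (SE 0.19), Zbtb44 by 0.84 (SE 0.22) and Klf7, a Krüppel-like factor, by 0.68 (SE 0.19), while Zc3h13, part of the complex that methylates adenosines in RNA, was at -0.72 (SE 0.20).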

How the data were processed

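The deposited table holds probe set intensities on a linear scale, for which the authors used RMA (background correction, quantile normalization and probe summary), per the submitters' processing notes, with no version; the sources used here do not give the genome build or gene models. RMA returns log2 values, so the return to a linear scale is read from the values. Symbols came from the platform's annotation; all 19 Zfp identifiers matched RefSeq (GRCm38.p6), which gave gene order. For a gene with several probe sets, the brightest on average stands for it. Log2(intensity + 1) was fitted over all 1382 probe sets with limma 3.58.1 in R 4.3.3 (lmFit, eBayes, no covariate), adjusted by Benjamini-Hochberg over the table (threshold 0.05), and the fit was tested on simulated data. Every Zfp gene is named, with all arrays for cluster members and the 6 largest changes and, by later choice, for the others too. The members and lists were chosen with earlier results of these data known, and Rsl1 and the promoter motifs after values or sequences were seen. Alternatives were other scalings, no pseudocount, a filter on dim probe sets, another variance model, averaging probe sets of a gene, neighbour limits of 10 and 100 genes, the replicate number as a block, leaving out each array, and, added later, 45000 assumed tests. The number of arrays limits the precision. Figures were drawn with matplotlib 3.10.9.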

Additional observations from a re-analysis of the deposited data

How the results depend on the processing

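Of the 15 Zfp probe sets called higher, 8 were called after median centring, 9 after quantile normalization, 8 without the dimmest 25% by mean intensity (which leaves out 7 of the 21) and 9 over 45000 assumed tests, where 1 of the 6 lower ones was called; the 6 lower were called under the other alternatives, except Zfp704 without Stat3 d/d replicate 2. The median change of the Zfp genes, 0.76, was 0.29 after median centring, 0.27 after quantile normalization and 0.89 without the dimmest 25%; without each array in turn it ran from 0.64 to 0.78, with 15 higher and 5 to 6 lower. By construction the scalings lower every change, and the filter and the assumed tests remove probe sets or raise the bar. No Zfp probe set reversed under any alternative. Since the groups do not overlap in any probe set of the selected table, only the scalings could have reversed a direction. The unchanged directions under the other alternatives, leaving out arrays among them, are therefore no separate result. Limiting neighbours to 10 annotated genes left 7 genes in clusters (Zfp943, Zfp994 and Zfp944 on chromosome 17), and 100 gave the same 10. With the replicate block (numbers 1 and 2, which both groups share, 4 arrays) the counts were 15 and 6 and the median 0.74. Same-numbered arrays had deviations that correlated at 0.09 and 0.03 across probe sets, which shows no pairing but, with so few arrays, cannot exclude it. The block changed no call, but its fit leaves 1 residual degree of freedom and the table was selected for difference, so this says little. Low intensity limits Zfp626, Zfp882, Zfp874a, Zfp944 and Zfp40 most.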
